A study of Drosophila melanogaster with 4 samples.

Results

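The loci described here are *Drosophila* piRNA source loci that depend on Rhino (Rhi) and lie in the pericentromeric heterochromatin of the left arm of chromosome 3. They belong to piRNA clusters classed as Enok-unbound in the deposited data, and Enok at single bins was not measured in these libraries. They were taken as every 1 kb bin of the Enok-unbound table on 3LHet, the dm3 sequence that holds this heterochromatin apart from the main arm, with a value above 0 in all 4 libraries. All 338 bins of that table on 3LHet met the rule, out of 2363 bins with a value above 0 in every library among the 2364 of the Enok-bound and Enok-unbound tables together, and they fell into 11 of 88 numbered clusters. The first bin began at 4001 and the last ended at 2502857 of 3LHet (dm3), and 12 bins were shorter than 1 kb.

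Germline piRNAs arise largely from dual-strand clusters, heterochromatic stretches of transposon remnants that are transcribed on both strands. Rhi, the germline HP1 paralogue HP1D, binds H3K9me3 chromatin there and, with Deadlock and Cutoff, licenses a noncanonical transcription that needs no defined promoter. Enok is the acetyltransferase of histone H3 lysine 23, and the comparison asks how much Rhi sits on these loci when Enok is depleted from the germline.

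Rhi chromatin immunoprecipitation with sequencing (ChIP-seq) was performed in ovaries of females kept at 29 °C and aged 2 to 3 days. The control ovaries expressed an shRNA against EGFP from P{VALIUM20-EGFP.shRNA.1}attP2 (GFP_KD), and the depleted ovaries an shRNA against *enok* from P{TRiP.HMS02634}attP2 (*enok*_KD). Both genotypes carried 1 copy each of the 3 Gal4 transgenes known together as MTD-Gal4. These were an otu-GAL4::VP16 and a GAL4-nos.NGT insertion, each over +, and the MVD1 insertion of a GAL4::VP16-nos transgene at CG6325, opposite the shRNA transgene. They drive expression in the germline, so the somatic cells of the same ovaries were not targeted. Each knockdown gave 1 input and 1 IP library, hence no difference below has a replicate check, no test was possible, and every error is a counting error only. The title and the protocol of the series name an antibody against Rhi, whereas its design text names RNA polymerase II, and the libraries are taken here as Rhi ChIP-seq. The identity of the IP and the depth of the knockdown could not be checked from bins and peaks alone.

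The deposited value of a bin is its uniquely mapped reads, scaled to the size of the library (RPM), divided by a mappability index, the part of the bin to which reads can map uniquely. Whole reads were recovered from these values in 2364 bins (100%), and the libraries of GFP_KD then had depths of 7742110 (input) and 8024682 reads (IP) and those of *enok*_KD 8196249 (input) and 6657843 reads (IP). The 338 bins held 12185 input and 27168 IP reads of GFP_KD and 12797 input and 25195 IP reads of *enok*_KD. This was 0.157% of the GFP_KD input (95% Wilson interval 0.155 to 0.160) and 0.156% of the *enok*_KD input (0.153 to 0.159). It was 0.339% of the GFP_KD IP (0.335 to 0.343) and 0.378% of the *enok*_KD IP (0.374 to 0.383). The loci thus took a larger share of each IP than of its input, and the shares of the inputs overlapped within counting error.

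Occupancy is given as log2 of IP over input, and the change as the *enok*_KD occupancy minus the GFP_KD occupancy on the same log2 scale. Median values over the bins were 6.82 RPM (input) and 13.4 RPM (IP) for GFP_KD and 6.79 RPM (input) and 11.7 RPM (IP) for *enok*_KD. Median occupancy over the 338 bins was 1.06 in GFP_KD (quartiles 0.57 and 1.73) and 0.88 in *enok*_KD (0.39 and 1.59). The interquartile ranges thus overlapped widely. The median change was -0.14, the quartiles were -0.68 and 0.41, and single bins ranged from -2.60 to 3.45. The changes of single bins had an SD of 0.80 and a median counting error of 0.54.

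Counted bin by bin, neither the 2-fold threshold nor the counting error marked a larger share of these bins than of all bins together. At 190 of the 338 bins the *enok*_KD occupancy was the lower one (56.2%, against 53.7% of all bins tested). It was at least 2-fold lower at 38 bins (11.2%, against 12.8% of all bins) and at least 2-fold higher at 19 bins (5.62%, against 10.2%). Beyond the 95% counting error of the bin itself, 28 bins were lower (8.28%, against 10.7%) and 37 were higher (10.9%, against 11.7%). These counts used the smallest possible mappability index, and the largest gave 60 lower and 52 higher. Where an index larger than the smallest is possible, it requires the reads of the bin to share a factor in every library. The largest index therefore cannot decide which direction had more bins, and no direction is drawn from it. The inputs, which involve no antibody, differed beyond counting error at 19 bins (5.62%, against 7.02%), with a median input change of -0.07. Among the 181 bins with at least 20 reads in every library, 9 were at least 2-fold lower (4.97%, against 8.15% of all bins of that depth) and 11 at least 2-fold higher (6.08%, against 11.3%). Reads pooled over the 338 bins gave a change of 0.17 ± 0.022 (counting SE), opposite in sign to the median. Cluster 12 alone, with 56 bins, held 6507 of the 27168 GFP_KD IP reads and 9766 of the 25195 *enok*_KD IP reads. Without cluster 13, the largest, the median change over the remaining 233 bins was 0.05. The sign of a single value for the whole set therefore depended on the weighting and choice of bins.

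The clusters differed in direction. Of the 11 clusters, 7 had a negative median change and 4 a positive one. The cluster medians had an SD of 0.40 for the change in occupancy and 0.10 for the change in input, and the input median of a cluster differed from 0 by 0.21 at most. Beyond that size, the median was lower at 4 clusters and higher at 2, but only clusters 13 and 24 of the 4 were lower in pooled reads too, while 12 and 34 were higher in both. Clusters 13 and 24 held 134 bins and 27 of the 38 bins that were at least 2-fold lower (71.1%). That was 17.1% of cluster 13 and 31.0% of cluster 24, against 12.8% of all bins. With at least 20 reads in every library, 2 of 27 and 3 of 16 bins were that much lower, in that order. Clusters 12 and 34 held 76 bins and 13 of the 19 bins that were at least 2-fold higher. These were 11 bins of cluster 12 (19.6%) and 2 of cluster 34 (10%), against 10.2% of all bins, so cluster 34 did not exceed that share. The other 7 clusters, 128 bins together, had a median change of -0.06. The choice of these 4 clusters was made after their values were seen, so the counts are a description.

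**Figure D1:**
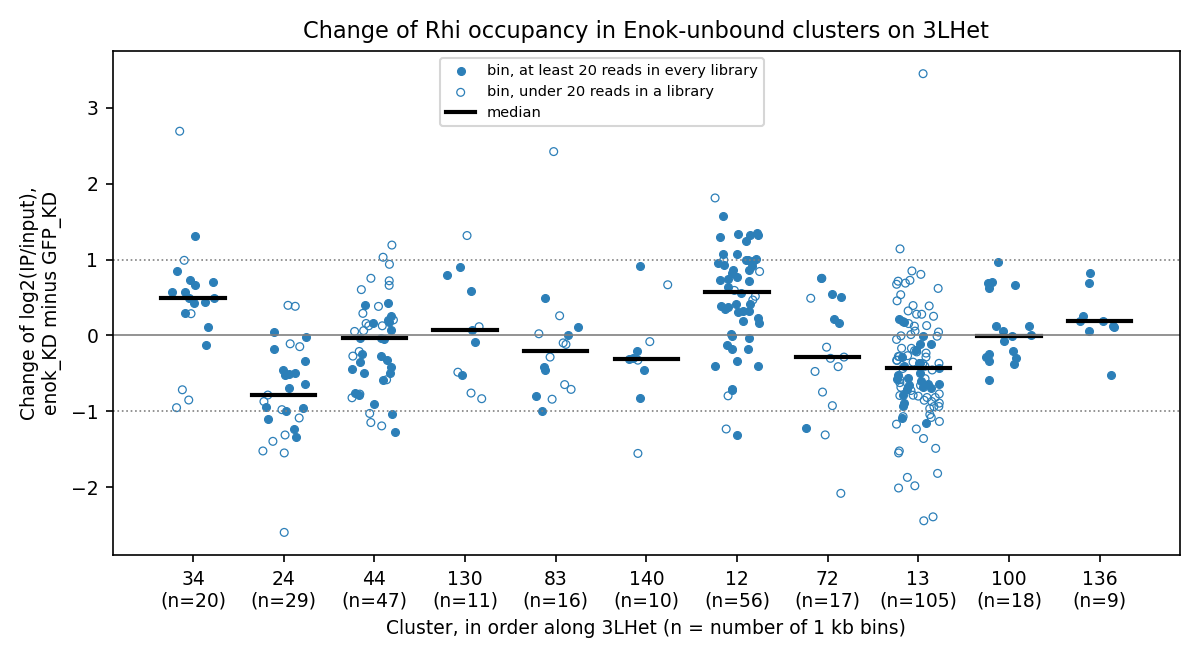
Change of Rhi occupancy (log2 of IP over input, *enok*_KD minus GFP_KD) for each 1 kb bin, by cluster in order along 3LHet. Filled points are bins with at least 20 reads in every library, open points are bins with fewer, bars are cluster medians, and dotted lines mark a 2-fold change. The median runs from -0.79 at cluster 24 to 0.57 at cluster 12, and the widest single values, at clusters 13, 34 and 24, are open points.

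Cluster 12 had the highest median change. Its 56 bins lay between 1402377 and 1557939, and median occupancy was 0.90 (GFP_KD) and 1.27 (*enok*_KD). The median change was 0.57 (quartiles 0.13 and 0.98), with 43 bins higher and 13 lower. Of these, 20 were higher beyond counting error (35.7%, against 11.7% of all bins) and 2 lower (3.57%, against 10.7%). Pooled over the cluster, the inputs held 2235 (GFP_KD) and 2420 (*enok*_KD) reads, and the IPs 6507 and 9766, which is a 1.77-fold higher occupancy (0.82 ± 0.048). The input change had a median of -0.01, so the difference lay in the IP libraries.

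The difference at cluster 12 was uneven along the locus. Joining bins less than 5 kb apart gave 6 stretches, a division made after the values were seen. In the first stretch, 1402377 to 1428000, all 19 bins were higher, with median occupancy 1.73 (GFP_KD) and 2.83 (*enok*_KD) and a median change of 0.77. Beyond counting error, 11 of the 19 were higher (57.9%, against 11.7% of all bins). The 6 bins from 1438001 to 1444000 were all higher too, with a median change of 0.98. The difference shrank further along, to 0.33 over the 22 bins from 1493001 to 1528000, of which 5 were lower. It then turned at 1533001 to 1538000, where all 5 bins were lower, with a median change of -0.71 and a pooled change of -0.65 ± 0.20.

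Among bins with at least 20 reads in every library, the highest occupancies in *enok*_KD lay in that first stretch. The bin at 1406001 had 31.7 RPM (input) and 246 RPM (IP) in GFP_KD and 33.1 RPM (input) and 516 RPM (IP) in *enok*_KD, and was the highest such bin in both knockdowns at 2.96 and 3.96 (change 1.00 ± 0.24). The bin at 1421001 had input values of 90.7 and 77.4 RPM and IP values of 495 and 1070 RPM, an occupancy of 2.45 (GFP_KD) and 3.79 (*enok*_KD) and a change of 1.34 ± 0.26. The bin at 1409001 went from 2.75 to 3.70 (0.95 ± 0.24). At these 3 bins the inputs were close and the *enok*_KD IP stood above the GFP_KD IP. Their reads were among the deepest, with 605, 413 and 558 reads in the GFP_KD IP, although the mappability index of the bin at 1421001 could be as low as 0.104 and its RPM is scaled up accordingly.

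The remaining bins among the 3 largest rises at 20 or more reads in every library lay between 1493001 and 1528000. The bin at 1512001 had input values of 24.1 RPM (GFP_KD) and 18.8 RPM (*enok*_KD) and IP values of 14.1 and 32.8 RPM, so its occupancy went from -0.77 to 0.81 (1.57 ± 0.46). Its neighbour at 1511001 had input values of 10.7 and 9.29 RPM and IP values of 10.3 and 22.9 RPM, and went from -0.05 to 1.30 (1.35 ± 0.55). At 1512001 the IP lay under the input in GFP_KD and above it in *enok*_KD. At 1511001 the GFP_KD input and IP had 25 reads each, so the IP was level with the input there. Cluster 12 also held one of the 3 largest falls at 20 or more reads in every library, at 1537001, with input values of 5.22 and 7.64 RPM, IP values of 10.3 and 6.07 RPM and a change of -1.32 ± 0.57 on 20 to 41 reads per library.

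Cluster 34, at the start of the 3LHet sequence, was the other locus whose median lay above the size of the input changes. Its 20 bins ran without a gap from 4001 to 24000. Median occupancy was 1.33 (GFP_KD) and 1.83 (*enok*_KD), the median change was 0.49 (quartiles 0.24 and 0.70), and 16 bins were higher. Beyond counting error, 5 of the 20 bins were higher (25%, against 11.7% of all bins) and none lower (against 10.7%). At least 2-fold higher were 2 bins (10%, against 10.2% of all bins). The pooled reads were 763 and 874 in the inputs and 1849 and 2408 in the IPs, a change of 0.54 ± 0.084. The largest value, 2.69 ± 1.19 at 20001, rested on 2 reads in the *enok*_KD input and 8 in the GFP_KD input.

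**Figure D2:**
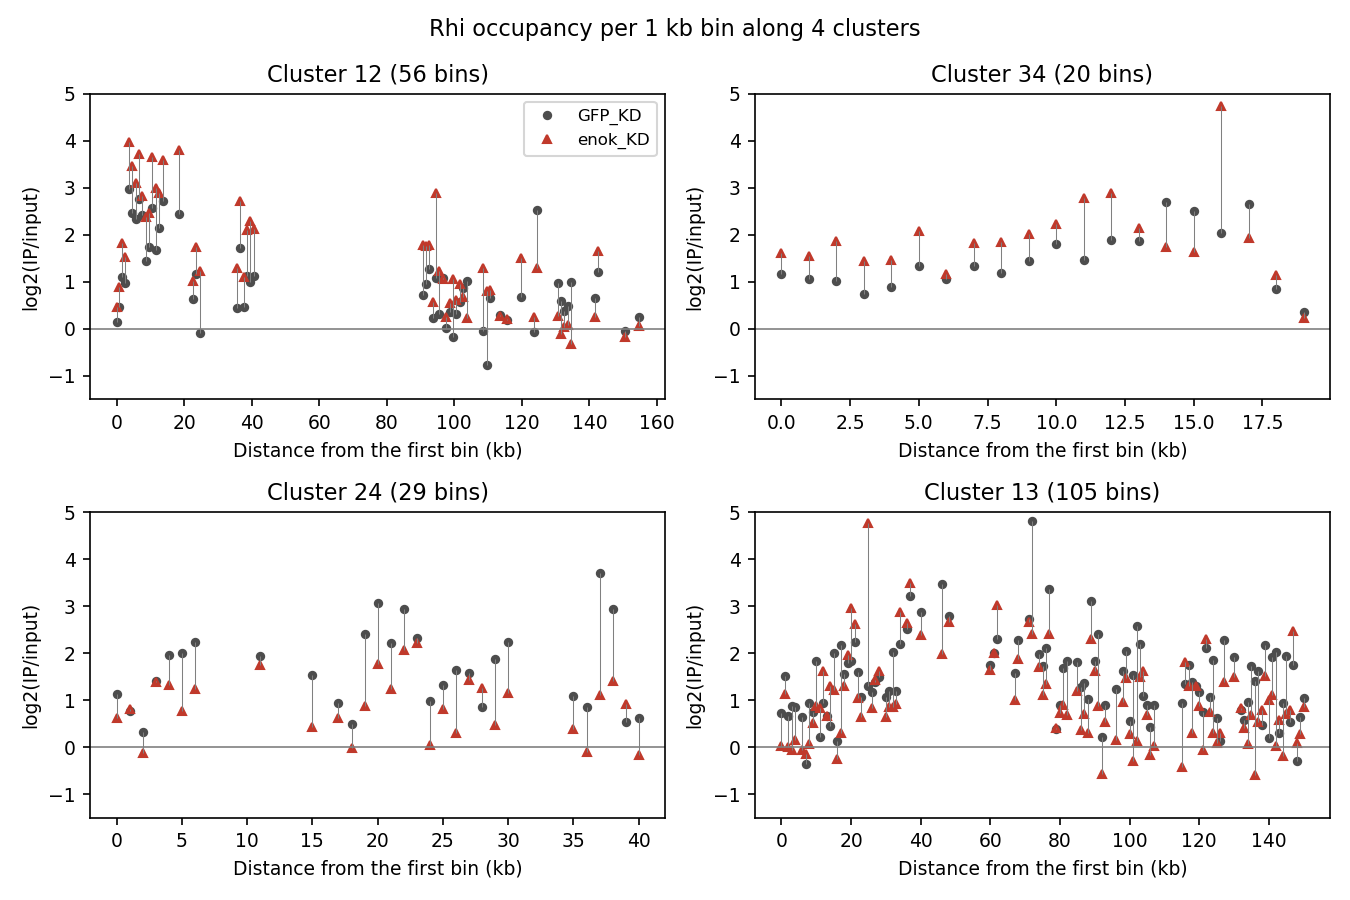
Rhi occupancy (log2 of IP over input) in each 1 kb bin along clusters 12, 34, 24 and 13, against distance from the first bin in kb. Circles are GFP_KD, triangles *enok*_KD, and a line joins the same bin. In cluster 12 the triangles lie above the circles in all 19 bins of the first 25.6 kb and below them in all 5 bins from 1533001 to 1538000. In cluster 24 they lie below at 26 of 29 bins.

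Cluster 24 had the lowest median change. Its 29 bins lay between 166001 and 206577, median occupancy was 1.59 (GFP_KD) and 0.88 (*enok*_KD), and 26 bins were lower. The median change was -0.79 (quartiles -1.11 and -0.34). At least 2-fold lower were 9 bins (31.0%, against 12.8% of all bins), and none was at least 2-fold higher (against 10.2%). Only 16 of the 29 bins had at least 20 reads in every library. Of these, 3 were at least 2-fold lower (against 8.15% of all bins of that depth), and their median change was -0.58. The pooled IP reads were 2592 (GFP_KD) and 1357 (*enok*_KD) on nearly equal inputs of 1152 and 1187, a change of -0.63 ± 0.077. The deepest fall among bins with at least 20 reads in every library was here, at 192001, with input values of 12.98 RPM (GFP_KD) and 12.3 RPM (*enok*_KD) and IP values of 40.5 and 15.1 RPM. Its occupancy of 1.64 in GFP_KD stood at 0.30 in *enok*_KD (-1.34 ± 0.57), so an enriched bin came close to the level of its input.

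Cluster 13 was the largest locus, with 105 bins from 2011004 to 2162000. Median occupancy was 1.38 (GFP_KD) and 0.85 (*enok*_KD), and 79 bins were lower. The median change was -0.44 (quartiles -0.82 and -0.01), and the pooled change was -0.45 ± 0.051, from 6627 IP reads in GFP_KD and 3648 in *enok*_KD on inputs of 2412 and 2318. The lower occupancy was found in each long stretch of the locus, with medians of -0.33 over 35 bins from 2011004 to 2052000, -0.62 over 35 bins from 2071001 to 2119000 and -0.41 over 33 bins from 2126001 to 2162000. From 2071001 to 2119000, 32 of 35 bins were lower. The input of this cluster was also lower in *enok*_KD, with a median change of -0.21. Its IP without input had a median change of -0.61, a larger fall than with input, and the part of the input was not tested.

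Coverage of cluster 13 was thin, and its single bins were imprecise. Only 27 of the 105 bins had at least 20 reads in every library. Just 10 bins were lower beyond counting error (9.52%, against 10.7% of all bins), although 18 were at least 2-fold lower (17.1%, against 12.8%). The largest rise of the whole set, 3.45 ± 1.61 at 2036001, and a fall of -2.39 ± 1.73 at 2083001 each rested on 1 read in an input. Of the 3 bins with the highest GFP_KD occupancy at 20 or more reads in every library, 2 lay in this cluster. The bin at 2051001 went from 2.87 in GFP_KD to 2.38 in *enok*_KD (-0.49 ± 0.35) and the bin at 2059001 from 2.78 to 2.67 (-0.12 ± 0.35), both within 95% counting error.

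**Figure D3:**
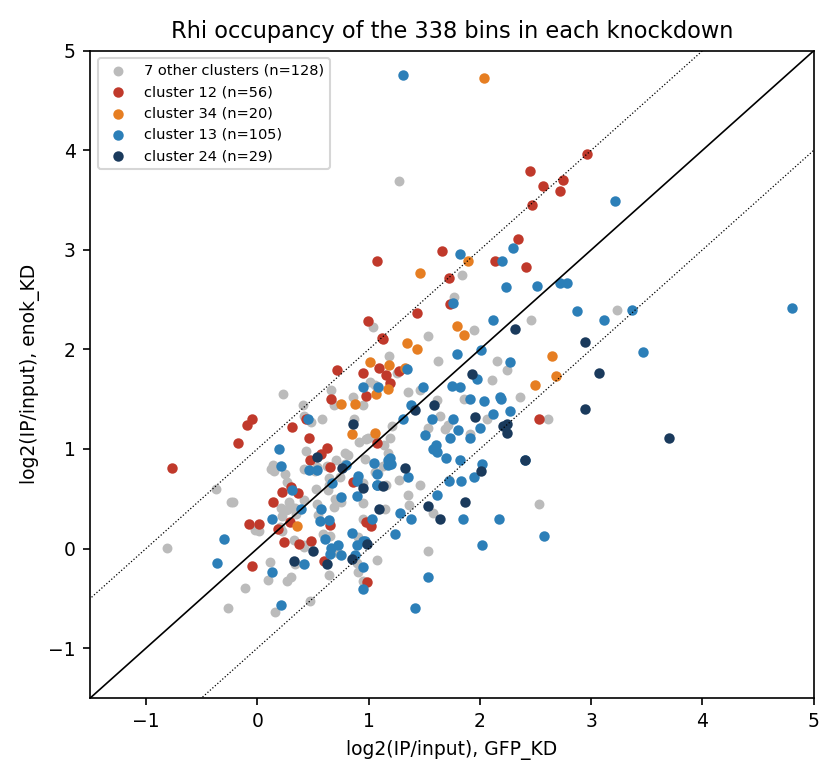
Rhi occupancy (log2 of IP over input) of the 338 bins in *enok*_KD against GFP_KD, with the line of equality and dotted lines at a 2-fold difference. Clusters 12 and 34 lie mostly above equality (43 of 56 and 16 of 20 bins) and clusters 13 and 24 mostly below it (79 of 105 and 26 of 29 bins), over overlapping ranges of GFP_KD occupancy.

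The remaining clusters moved less or gave no single direction. Cluster 44 (47 bins, 356904 to 406000) went from 0.81 to 0.76, with a median change of -0.04 and a pooled change of -0.15 ± 0.072. Beyond counting error 5 of its bins were lower (10.6%, against 10.7% of all bins) and none higher. Its bin at 399001, with input values of 8.91 RPM (GFP_KD) and 11.2 RPM (*enok*_KD) and IP values of 17.2 and 8.98 RPM, was among the 3 largest falls at 20 or more reads in every library (-1.27 ± 0.49). Cluster 83 (16 bins, 717136 to 744867) had a median change of -0.20, with 10 bins lower, and a pooled change of -0.21 ± 0.14. Cluster 130 (11 bins, 663001 to 687580) had a median change of 0.08 and a pooled change of 0.30 ± 0.12, but a median of -0.48 over its 5 bins with an index of at least 0.5, so it has no stable direction.

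At clusters 140 and 72 the median and the pooled change had opposite signs. Cluster 140 (10 bins, 950877 to 962227) had a median change of -0.31 with 8 bins lower, yet a pooled change of 0.11 ± 0.15. The bin at 953001 held 178 of the 715 GFP_KD IP reads and 311 of the 630 *enok*_KD IP reads and had a change of 0.91 ± 0.31. Cluster 72 (17 bins, 1875500 to 1903000) had a median change of -0.29 with 10 bins lower and a pooled change of 0.27 ± 0.11, and its 6 bins with at least 20 reads in every library had a median of 0.36. No direction is given for these 2 clusters.

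The last clusters of the sequence had the lowest occupancy in both knockdowns. Cluster 100 (18 bins, 2187001 to 2224000) had a median occupancy of 0.27 (GFP_KD) and 0.46 (*enok*_KD), and 9 bins were lower and 9 higher. Its pooled change was -0.15 ± 0.060, and the bin at 2188001, with a change of -0.38 ± 0.084, held 1081 of the 2101 GFP_KD input reads. The one cluster with fewer than 10 bins, cluster 136 (9 bins, 2494001 to 2502857), had a median occupancy of 0.26 (GFP_KD) and 0.40 (*enok*_KD) and a median change of 0.19, with 8 bins higher. Neither cluster overlapped a peak of either list.

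Neighbouring bins had changes of the same sign more often for occupancy than for input. Over 275 pairs of adjacent bins the changes of occupancy had a Pearson correlation of 0.39, against 0.07 for the changes of input in the same pairs. The sign was the same in 183 pairs (66.5%), and in 56% for the inputs. At a distance of 5 kb the correlation over 204 pairs was 0.34, and the sign was the same in 64.2%. These pairs share libraries and clusters, and the values are a description over bins of 1 experiment.

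The deposited peaks, called by the authors for each IP, gave a second view of the same libraries. Of 154 GFP_KD peaks on 3LHet, 41 overlapped the 338 bins by at least 1 bp, and of 121 *enok*_KD peaks 43 did. They overlapped 50 bins in GFP_KD (14.8%, against 15.7% of all bins) and 49 in *enok*_KD (14.5%, against 15.7%). Summed length was 29.1 kb (GFP_KD) and 39.9 kb (*enok*_KD), and median fold enrichment was 3.93 and 4.18. Of the GFP_KD peaks 27 (65.9%) overlapped a peak of the other list, and of the *enok*_KD peaks 31 (72.1%). The number of occupied bins was thus almost equal while the *enok*_KD peaks were longer in sum. These lengths count whole peaks, and part of them lay outside the bins. Bins with at least 500 bp under a peak numbered 16 in GFP_KD and 23 in *enok*_KD.

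That near equality hid opposite differences among clusters. At cluster 34 there were 4 peaks over 6 of the 20 bins in GFP_KD (1.19 kb in all) and 11 peaks over 14 bins in *enok*_KD (6.14 kb). At cluster 12 there were 7 peaks in each list, but their length was 12.2 kb (GFP_KD) and 17.7 kb (*enok*_KD) and their median fold enrichment 6.13 and 11.3. The *enok*_KD peak at 1491445 to 1493181 counts there with 1737 bp, of which 181 bp lay in a bin. A GFP_KD peak overlapped it but touched no bin and is not counted, so the equal number and the difference in length depend partly on the edge of the bins. Cluster 24 had 5 peaks over 6 bins in GFP_KD and 2 peaks over 2 bins in *enok*_KD. Cluster 13 had 14 peaks over 13 bins and 12 peaks over 8 bins. Peaks and bins come from the same reads, so their common direction at these 4 clusters is not independent evidence.

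**Figure D4:**
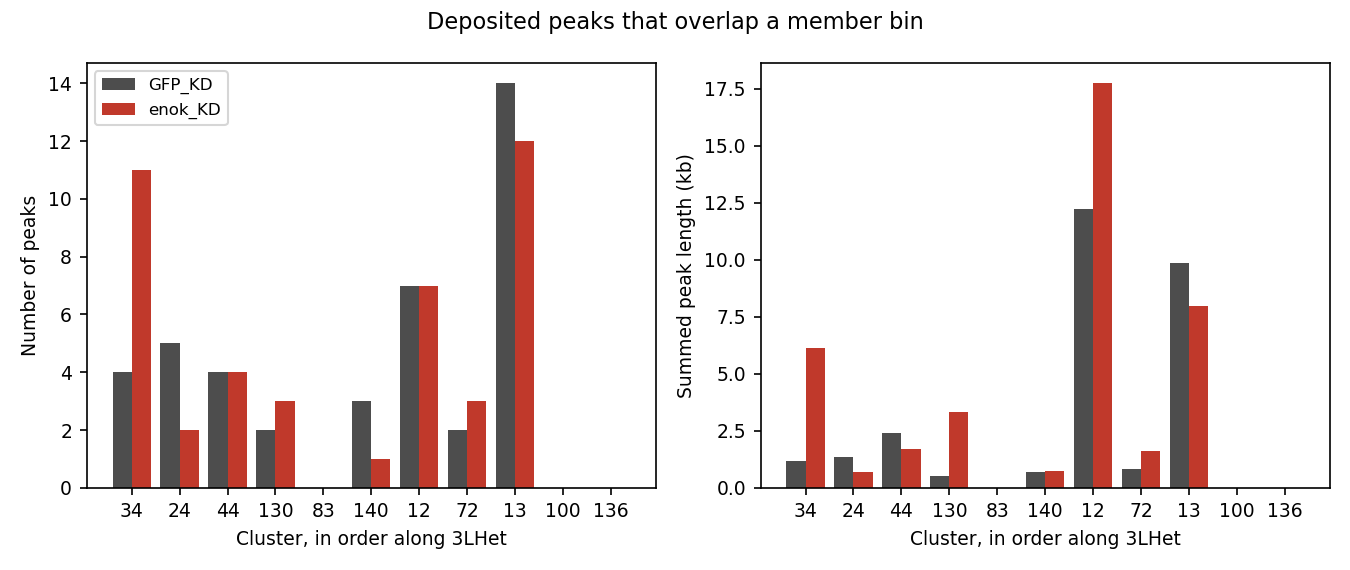
Number (left) and summed length in kb (right) of the deposited peaks that overlap a bin of each cluster, in GFP_KD and *enok*_KD. Lengths count whole peaks, including parts outside the bins. Cluster 34 has 4 peaks in GFP_KD and 11 in *enok*_KD, cluster 12 has 7 in each with 12.2 and 17.7 kb, and clusters 83, 100 and 136 have none.

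The strongest peaks of both lists lay in cluster 12. In GFP_KD they were 1405822 to 1408067 (fold enrichment 10.6), 1412776 to 1413905 (9.71) and 1415520 to 1418431 (8.64). In *enok*_KD they were 1405802 to 1410531 (19.3), 1412497 to 1418878 (17.7) and 1443826 to 1444820 (11.5). The first of these *enok*_KD peaks spanned 2 GFP_KD peaks and the second spanned 3, so fewer and wider peaks stood there in *enok*_KD. The summits at 1406770 (GFP_KD) and 1406795 (*enok*_KD) lay 25 bp apart, and the median distance from a summit to the nearest summit of an overlapping peak was 47 bp for GFP_KD peaks and 50 bp for *enok*_KD peaks.

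Peaks found in a single list were weaker. In GFP_KD alone the strongest were 951995 to 952215 in cluster 140 (5.92), 366069 to 366309 in cluster 44 (4.51) and 2093281 to 2093740 in cluster 13 (4.48). In *enok*_KD alone they were 1441872 to 1442137 in cluster 12 (4.72), 8286 to 8667 in cluster 34 (4.27) and 11425 to 12205 in cluster 34 (4.20). Cluster 140 had 1 *enok*_KD peak against 3 in GFP_KD, but the shared one, at 953207 to 953506 (GFP_KD) or 953072 to 953790 (*enok*_KD), had a fold enrichment of 6.86 and 11.1, in that order. At cluster 130 the *enok*_KD peaks summed to 3.31 kb and the GFP_KD peaks to 0.510 kb, but 1 *enok*_KD peak of 2572 bp extended past the bins of the cluster.

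Peaks come from the same IP reads, so the change of bins under them is a description only. The 36 bins under a peak in both lists had a median change of 0.57, and so had the 13 under an *enok*_KD peak alone. The 14 bins under a GFP_KD peak alone had -0.38 with 12 lower, and the 275 bins under none -0.24. The bins under a peak had a lower median mappability index, 0.221 over the 63 bins with a peak in either list against 0.508 over the rest, and its part in these values was not tested. Split by index alone, the median change was -0.12 over 183 bins below 0.5 and -0.20 over 155 bins at or above it.

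Similar groups of bins are set beside the Enok-unbound loci on 3LHet without a test and without an order, since the sign of the median depended on the choice of bins. The 305 Enok-bound bins on 3LHet, in 5 clusters interleaved with the 11, went from a median occupancy of 1.08 in GFP_KD to 0.91 in *enok*_KD, with a median change of -0.06, a pooled change of 0.15 ± 0.026, and 12.8% of bins at least 2-fold lower and 7.87% higher. Their 5 cluster medians of -0.28, -0.36, -0.31, 0.32 and 0.16 also ran in both directions. The 466 Enok-unbound bins on 3RHet had a median change of 0.00, with 13.1% at least 2-fold lower and 17.6% higher, and the 552 Enok-unbound bins on the main arms had 0.15, with 4.89% lower and 15.2% higher. All quartile ranges overlapped. Since values are relative to the total of each library and no spike-in was named, a change of Rhi over the whole genome cannot be told apart from no change.

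**Figure D5:**
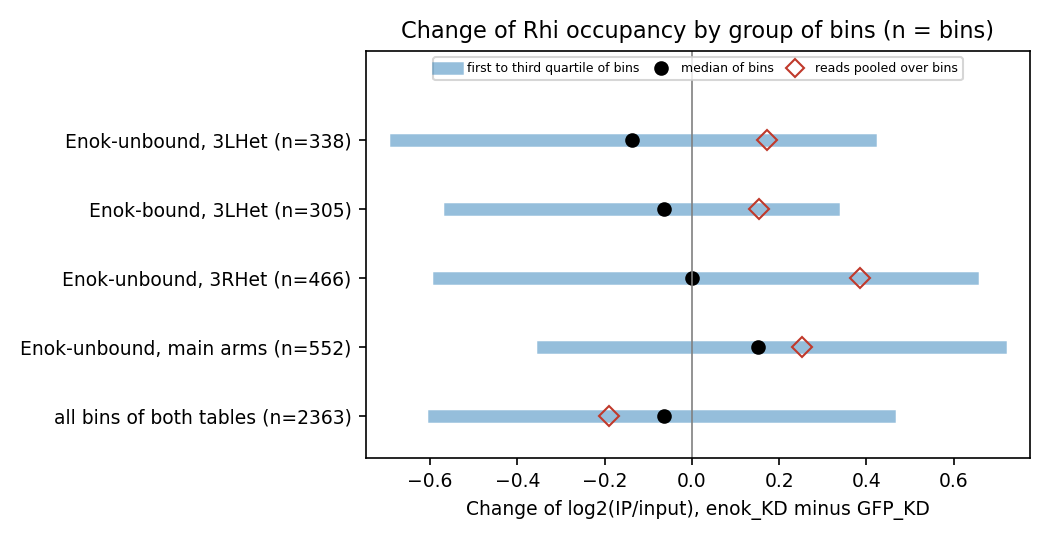
Median change of Rhi occupancy (log2 of IP over input, *enok*_KD minus GFP_KD; black points), interquartile range of bins (bars) and change from pooled reads (diamonds) for the Enok-unbound bins on 3LHet, 3 groups of other bins and all bins. On 3LHet the median is -0.14 and the pooled change 0.17 for Enok-unbound bins, and every bar spans 0.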

How the data were processed

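Ovary ChIP-seq reads were aligned by the authors with Bowtie2 (version 2.2.1) against genome build dm3, and only perfect, unique alignments were kept. Their deposited tables give each 1 kb bin as RPM of uniquely mapped reads divided by a mappability index, and their methods speak of pooled replicates whereas each group held 1 library. The authors also deposited a peak list per IP, with fold enrichment, −log10 p-value and −log10 q-value. MACS2 and Trimmomatic stand in the submitters' processing notes with no role. Peak calling settings and the rule behind the Enok-bound class are not given in the sources used here.

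From these files, whole reads were recovered per bin with the smallest index between 0.1 and 1 (3 decimals) that gave whole reads in every library, within 0.02 of a read. Only 1 index was possible for 155 of the 338 bins (45.9%). Elsewhere reads are lower limits and counting errors upper limits, and pooled values depend on this choice. Occupancy was log2(IP/input) with no pseudocount. No test was run with 1 library per group. Counting errors assume Poisson reads, and reads without molecular identifiers are not independent molecules, so intervals cover counting error only. The precision was set by a median of 24 and 26 reads per bin in the GFP_KD and *enok*_KD inputs and 48 and 31 in the IPs.

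Named were every cluster with at least 10 bins, the 3 largest falls, rises and occupancies among bins with at least 20 reads in every library, and the 3 strongest peaks of each list, overall and without a counterpart. Other bins and peaks named were chosen after their values were seen. The members, comparisons and alternatives were chosen with earlier results of these data known. Alternatives covered the pseudocount, the index and read minimum, the IP without input, centring, pooling and leaving out clusters. The scripts were tested on simulated data. Python 3.11.15, numpy 2.4.6, pandas 2.3.3, SciPy 1.17.1 and matplotlib 3.10.9 were used. No genome of build dm3 was used here, so no sequence is printed.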

Additional observations from a re-analysis of the deposited data

How the results depend on the processing

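The median change over the 338 bins did not keep its sign. It was -0.14 over all bins, -0.0082 over the 181 bins with at least 20 reads in every library and 0.052 without cluster 13. Of those 181 bins, 9 were at least 2-fold lower (4.97%, against 8.15% of all bins of that depth). At least 2-fold higher were 11 (6.08%, against 11.3%). Among the 155 bins with an index of at least 0.5, 20 were at least 2-fold lower and 11 higher. Without cluster 13, 20 of 233 bins were at least 2-fold lower. For the index and for leaving out cluster 13 no share over all bins was computed, so nothing is read from those counts. Median occupancy in GFP_KD was 0.88 with a pseudocount of 1 RPM and 0.79 with at least 20 reads, and in *enok*_KD 0.76 and 0.69. In alternatives chosen after seeing the data, bins lower beyond counting error numbered 60 with the largest possible index and 8 where only 1 index was possible, and bins higher beyond it 52 and 17. The bins with only 1 possible index are the same 155 as those with an index of at least 0.5, so they are not a separate subset. Bins under a peak were 16 in GFP_KD and 23 in *enok*_KD (144%) with an overlap of at least 500 bp, and 36 and 42 (117%) when peaks below the median fold enrichment were left out, against 98.0% for all peaks. Among single clusters, cluster 136 reversed to -0.13 over its 2 bins with an index of at least 0.5, and cluster 130 changed sign to -0.48 over 5 such bins and to -0.01 for the IP alone. Clusters 44, 72, 100 and 140 also changed sign under at least 1 of 6 alternatives each, and clusters 12, 13, 24, 34 and 83 under none. In all, 86 of 103 alternative values stayed within the 95% order-statistic interval of the median over bins, which treats bins as independent, or, for counts, within 1.5 times. The cause was not tested. No paired analysis was possible because no group has a second library. Depth limits single bins, since 157 of the 338 had under 20 reads in a library.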
